A study of Mus musculus with 6 samples.

Results

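Chromatin remodellers and the enzymes that add methyl groups to histones or take them off were described in liver mRNA of mice given Bangpungtongseong-san (BT), an oriental herbal medicine. The members were all genes whose symbol begins with Kmt, Kdm, Chd or Arid and a digit, or with Setd or Smarc, and whose mean over the 6 libraries was at least 1 FPKM (fragments sequenced, scaled by transcript length and by library depth). Of 70 matching genes 61 reached that mean, among 10476 genes that reached it in a table of 23474. The mean was taken over both diets. Chd8, Kdm8 and Arid5a reached it only through their BT values, with HFD means of 0.977, 0.886 and 0.883 FPKM. All mice were male C57BL/6J mice of 17 weeks. Diets began at 5 weeks of age. The BT group received a high-fat diet with 1.5% (w/w) BT extract for 12 weeks, and the HFD group the same high-fat diet without the extract. There were 3 BT libraries and 3 HFD libraries. Nothing in the labels ties a library to a single mouse or to a pool, so each p-value reflects only how far these libraries differ among themselves, which may be technical.

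DNA in the nucleus is wound on histones, and remodellers use ATP to slide, evict or exchange these nucleosomes. SWI/SNF complexes contain 1 of 2 ATPases, BRM (Smarca2) or BRG1 (Smarca4), CHD3 and CHD4 are the ATPases of the repressive NuRD complex, and the KMT2 enzymes methylate lysine 4 of histone H3 at promoters and enhancers. Histone demethylases of the KDM families remove such marks. In liver, SWI/SNF and KMT2 complexes act as coregulators of nuclear receptors and of metabolic genes.

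With BT 8 of the 61 members rose and none fell, in limma's test of log2(FPKM + 1) at an adjusted p under 0.05 with Benjamini-Hochberg adjustment over all 10476 genes. The members called higher were 13.1% of the members, against 6.01% of all genes tested called higher, 7.33% called lower and 13.3% called in either direction. The 8 were the H3K4 methylases Kmt2b and Kmt2a, the CHD remodellers Chd3, Chd7 and Chd8, and the SWI/SNF genes Smarca2, Smarcc2 and Smarcd2. The members' median change was 0.25 on the log2(FPKM + 1) scale, against 0.07 for all genes, and 53 members (86.9%) had a change above 0, against 59.2% of all genes. All 3 BT values lay above all 3 HFD values in 22 members (36.1%, against 23.2% of all genes) and below them in 2 (3.28%, against 16.1%), while 39.3% of all genes did not overlap in either direction. Chd8 counts among the 8 and, with Kdm8, among the 22, though both reached the mean of 1 FPKM only through their BT values. At an unadjusted p under 0.05 in limma stood 23 members (37.7%, against 32.4% of all genes tested), 22 of them higher and 1 lower (Smarcb1). The count of 8 turned on single libraries. It was 2 without BT replicate 1 or without BT replicate 2, and 5 without BT replicate 3. It was 4 without HFD replicate 1 or without HFD replicate 2, and 19 without HFD replicate 3. All genes called higher, 630 with all libraries, numbered 49, 103 and 207 without BT replicates 1 to 3. They numbered 551, 221 and 855 without HFD replicates 1 to 3. Members have long transcripts, and long genes as a whole stood higher in BT livers. In a fit from which the trend on length and GC content had been taken out of every library, 4 members were called higher (Kmt2b, Chd3, Smarca2 and Smarcc2, against 4.11% of all genes) and 1 lower (Smarca4, lost in each such fit without 1 library, against 3.74% of all genes), with a median of 0.09.

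**Figure D1:**
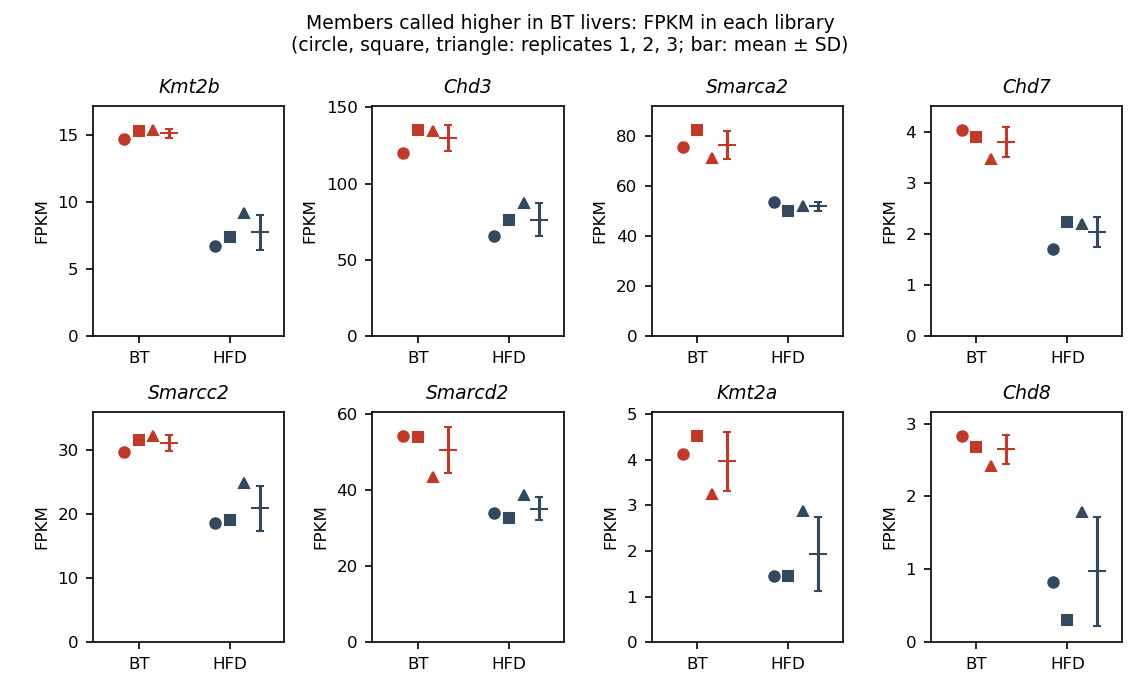
FPKM of the 8 members called higher, with 1 panel per gene, BT libraries on the left, HFD libraries on the right, a symbol per replicate and a bar for the mean ± SD (n = 3 each). In each panel the 3 BT values lie above the 3 HFD values, and in each panel except Smarca2 and Chd7 HFD replicate 3 is the HFD library nearest to the BT values.

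RefSeq promoter windows (GRCm38.p6) were at hand for 47 of the 61 members. Those of 3 members that rose are shown as the 250 bases before the RefSeq start, 5′ to 3′, with matches to 7 motifs in capitals: the clock-type E-box (CACGTG), the ETS core (CCGGAAG), the GC box (GGGCGG), the CRE (TGACGTCA), the CCAAT box, the YY1 motif (AAGATGGCG) and the TATA box (TATAAA), on either strand. They come from a KMT2 methylase, a CHD remodeller and a SWI/SNF subunit, 1 of each kind among the 5 called members with a window.
Kmt2a, chr9:44881290-44881539, minus strand: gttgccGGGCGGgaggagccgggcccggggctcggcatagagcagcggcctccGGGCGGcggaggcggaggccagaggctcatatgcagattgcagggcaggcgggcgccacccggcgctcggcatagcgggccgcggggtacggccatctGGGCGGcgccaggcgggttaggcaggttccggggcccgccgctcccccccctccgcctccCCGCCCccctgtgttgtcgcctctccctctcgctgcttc
Chd8, chr14:52257761-52258010, minus strand: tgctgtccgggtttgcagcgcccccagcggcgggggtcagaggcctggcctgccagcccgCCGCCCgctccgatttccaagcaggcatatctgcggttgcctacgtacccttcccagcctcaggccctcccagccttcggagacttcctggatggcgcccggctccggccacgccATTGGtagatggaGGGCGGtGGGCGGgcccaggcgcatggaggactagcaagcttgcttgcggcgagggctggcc
Smarcc2, chr10:128458986-128459235, plus strand: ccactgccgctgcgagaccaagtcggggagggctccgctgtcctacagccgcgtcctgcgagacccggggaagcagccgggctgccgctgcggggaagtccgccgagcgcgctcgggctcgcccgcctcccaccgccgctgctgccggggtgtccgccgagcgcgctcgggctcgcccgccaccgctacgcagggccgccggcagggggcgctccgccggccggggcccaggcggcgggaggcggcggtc
The Kmt2a window held 29 CG dinucleotides and 4 matches to GGGCGG, and the Chd8 window 20 CG dinucleotides, 3 matches to GGGCGG and 1 to CCAAT. The Smarcc2 window had the most CG dinucleotides of these 3 (40) and none of the 7 motifs. The windows of Smarca2 (28 CG dinucleotides) and Smarcd2 (4, with a TATA box) are not printed. The Smarcd2 window, at 106267633 to 106267882, lies inside the span of this minus-strand gene (106263179 to 106272972). It stands before an internal RefSeq start, not before the 5′ end of the gene. Over the members' 62 windows the median was 20.5 CG dinucleotides, against 15 in 10556 windows of genes tested. GGGCGG was found in 66.1% of the members' windows and in 56.8% of windows of genes tested. The E-box stood in 3.23% of the members' windows and in 8.43% of windows of genes tested, and CCAAT in 37.1% of the members' windows and in 35.4% of all windows of genes tested. A match of letters is a description and shows no binding.

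Among the H3K4 methylases 2 of 6 members rose, with a median of 0.44 and a median transcript of 11718 bases. Of all genes tested 6.01% rose, with a median of 0.07, and of those of 8000 bases or more 12.3%, with a median of 0.28. Kmt2b, whose product methylates H3K4 at promoters (chromosome 7, 30568858 to 30588726), stood at 14.7, 15.3 and 15.4 FPKM in BT livers, against 6.71, 7.39 and 9.23 FPKM in HFD livers. The BT values lay close together and all above the HFD values. Kmt2b averaged 15.1 ± 0.366 FPKM in BT livers and 7.77 ± 1.30 FPKM in HFD livers (SD, n = 3 each), 1.94-fold, a log2 change of 0.89 ± 0.13 (SE) with a limma adjusted p of 0.00816. It was called in each of the 6 fits without 1 library, and also after removal of the trend (0.75, limma adjusted p = 0.00956). Kmt2a, the gene of the founding MLL protein (chromosome 9, 44803355 to 44881296), had 4.12, 4.51 and 3.26 FPKM in BT livers, against 1.46, 1.46 and 2.87 FPKM in HFD livers. HFD replicate 3 stood close to BT replicate 3 here. The log2 change of Kmt2a was 0.79 ± 0.20 (limma adjusted p = 0.0381), and it was called in only 1 of the 6 fits that left out a library, the one without HFD replicate 3. With the trend removed it was 0.57 (adjusted p = 0.0675 by limma). The enhancer methylases Kmt2c and Kmt2d also had all BT values above all HFD values but were not called. Kmt2c stood at 6.62, 5.86 and 6.25 FPKM with BT, against 4.88, 4.03 and 4.93 FPKM with HFD (0.37 ± 0.12, limma adjusted p = 0.0699). Kmt2d averaged 4.96 ± 0.289 FPKM in BT livers and 3.28 ± 1.06 FPKM in HFD livers. Kmt2e, which lacks known methylase activity, and Setd1a, a promoter H3K4 methylase, overlapped between the diets. Setd1b, the close relative of Setd1a, is listed at 0 in all 6 libraries, and no absence was read from that.

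Of 9 CHD remodellers 3 rose, with a median of 0.51 and a median transcript of 8509 bases. The share of all genes tested that rose was 6.01%. Among all genes of 8000 bases or more it was 12.3%, with a median of 0.28. All 9 CHD remodellers had a change above 0 as deposited, against 59.2% of all genes tested. Chd1l lay below 0 under median-of-ratios scaling, quantile normalization and the removal of the trend, and Chd2 under the last. Chd3, an ATPase of NuRD (chromosome 11, 69343273 to 69369406), was the most abundant member by mean FPKM. It stood at 120.2, 135 and 134 FPKM in BT livers, against 65.6, 76.4 and 87.4 FPKM in HFD livers. The lowest BT library was thus above the highest HFD library. Its means were 129.9 ± 8.34 FPKM with BT and 76.5 ± 10.9 FPKM with HFD (SD, n = 3 each), 1.70-fold, a log2 change of 0.76 ± 0.12 (SE, limma adjusted p = 0.0120). Like Kmt2b it passed without any single library and with the trend removed (0.59, limma adjusted p = 0.0189). Chd7, the gene mutated in human CHARGE syndrome (chromosome 4, 8690406 to 8867659), had 4.03, 3.90 and 3.48 FPKM in BT livers, against 1.71, 2.23 and 2.20 FPKM in HFD livers. Its log2 change was 0.66 ± 0.13 (SE, limma adjusted p = 0.0171), and it missed the threshold without BT replicate 1, without BT replicate 2 and with the trend removed (0.45, adjusted p = 0.0645). Chd8, a negative regulator of Wnt signalling (chromosome 14, 52198151 to 52257780), stood at 2.83, 2.68 and 2.42 FPKM with BT, against 0.834, 0.311 and 1.79 FPKM with HFD. The HFD values of Chd8 spread widely, those with BT did not. The log2 change was 0.95 ± 0.25 (limma adjusted p = 0.0402). As its HFD mean lay below 1 FPKM, Chd8 entered the test through its BT values. Of the 6 fits without a library, Chd8 passed only in the one without HFD replicate 3, and with the trend removed the change was 0.73 (adjusted p = 0.0684).

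The other CHD genes were not called. Chd4, the second NuRD ATPase, had 19.3, 20.7 and 20.5 FPKM in BT livers, against 17.0, 14.9 and 18.6 FPKM in HFD livers (0.25 ± 0.11, limma adjusted p = 0.158). Chd9 averaged 3.57 ± 0.173 FPKM in BT livers and 2.25 ± 0.701 FPKM in HFD livers (0.51 ± 0.16, limma adjusted p = 0.0669). For Chd4 and Chd9 the diets did not overlap. Chd1, which reads methylated H3K4 (4.74 ± 0.927 FPKM with BT and 3.10 ± 1.11 FPKM with HFD), Chd6 and Chd2 overlapped. Chd1l, a remodeller of DNA damage sites, hardly differed, at 3.96 ± 0.227 FPKM with BT and 3.89 ± 0.0952 FPKM with HFD.

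In SWI/SNF the ATPases stood on opposite sides. Smarca2, the gene of BRM (chromosome 19, 26605050 to 26778322), had 75.9, 82.4 and 71.4 FPKM in BT livers, against 53.8, 50.2 and 52.0 FPKM in HFD livers. The HFD values were within a narrow range and all below BT. Smarca2 averaged 76.6 ± 5.53 FPKM with BT and 52.0 ± 1.81 FPKM with HFD (SD, n = 3 each), 1.47-fold, with a log2 change of 0.55 ± 0.10 (SE, limma adjusted p = 0.0146). It missed the threshold without BT replicate 1 and without BT replicate 2, and passed with the trend removed (0.40, limma adjusted p = 0.0385). Smarca4, the gene of BRG1, had 10.9, 12.3 and 12.1 FPKM in BT livers, against 13.7, 12.5 and 15.8 FPKM in HFD livers. Every BT value lay below every HFD value, by a small margin, and the gene was not called (-0.23 ± 0.12, limma adjusted p = 0.209). After removal of the trend Smarca4 was called lower (-0.39, limma adjusted p = 0.0454), but not with a replicate block as well (adjusted p = 0.0639). Nor was it called in any of the 6 fits with the trend removed and 1 library left out (limma adjusted p 0.0644 to 0.166). Of all 10476 genes, 392 were called lower with the trend removed, and 34 to 436 in those 6 fits.

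Of the 7 core and accessory SWI/SNF subunits 2 rose, against 6.01% of all genes tested. Smarcc2, the gene of the scaffold BAF170 (chromosome 10, 128459248 to 128490482), stood at 29.8, 31.5 and 32.1 FPKM with BT, against 18.6, 19.1 and 24.9 FPKM with HFD. Its log2 change was 0.57 ± 0.13 (limma adjusted p = 0.0275). Without HFD replicate 3 it was called, and in the other 5 fits without a library it was not. With the trend removed Smarcc2 passed (0.47, limma adjusted p = 0.0399). Smarcd2, the gene of BAF60B, which in mice is needed for granulocyte formation (chromosome 11, 106263179 to 106272972), had 54.1, 53.9 and 43.5 FPKM in BT livers, against 34.0, 32.8 and 38.6 FPKM in HFD livers. BT replicate 3 was the nearest to the HFD range. Smarcd2 changed by 0.51 ± 0.12 (limma adjusted p = 0.0325), passed in 2 of the 6 fits without a library, and just missed the threshold with the trend removed (0.49, adjusted p = 0.0505). With a transcript of 2747 bases it was the shortest of the 8 called members. The paralogues of both genes were not called. Smarcc1, the gene of BAF155, had 3.56 ± 0.240 FPKM with BT and 3.44 ± 0.343 FPKM with HFD (SD, n = 3 each). Smarcd1 had 2.30 ± 0.210 FPKM with BT and 2.72 ± 0.472 FPKM with HFD, and Smarcd3, a BAF60 form linked to lipid metabolism in mouse liver, 6.69 ± 0.755 FPKM with BT and 6.44 ± 0.422 FPKM with HFD. Smarcb1, a core subunit and tumour suppressor, stood at 8.97, 9.75 and 10.3 FPKM in BT livers, against 11.0, 14.0 and 11.4 FPKM in HFD livers. It was the other member whose BT values all lay below HFD (-0.30 ± 0.12, limma adjusted p = 0.132). Its transcript, 1660 bases, is the shortest of all members, and with the trend removed the change was -0.13. Smarce1 overlapped between the diets. Other gene models cover 48.2% of the exon bases of Smarcd3 and 12.7% of those of Smarcd1, and likewise 52.3% of Setd1a, 24.6% of Kdm3b and 19.3% of Chd2, so these values are uncertain.

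None of the 3 DNA-binding ARID subunits of SWI/SNF and none of 5 other ARID proteins was called by limma, with 2 and 1 at an unadjusted p under 0.05, which 32.4% of all genes tested reached. Arid1a stood at 6.50, 8.28 and 8.44 FPKM with BT, against 4.79, 4.38 and 7.55 FPKM with HFD, and overlapped only through HFD replicate 3. Arid1b, its alternative in the complex, averaged 3.85 ± 0.338 FPKM in BT livers and 2.68 ± 0.476 FPKM in HFD livers without overlap (0.41 ± 0.13, limma adjusted p = 0.0784). Arid2, of the PBAF form, differed by 0.15. Among the other ARID proteins Arid5b, a regulator of adipocyte metabolism in mice, had the largest change of all 61 members, at 0.97 ± 0.32, and was not called (limma adjusted p = 0.0775). It stood at 8.50, 6.04 and 4.67 FPKM in BT livers, against 2.44, 1.42 and 5.07 FPKM in HFD livers, and the value of HFD replicate 3 lay above that of BT replicate 3. Without that library Arid5b passed. Arid3b, Arid4a, Arid4b and Arid5a differed by 0.15 to 0.27 and overlapped. Of the ISWI-type and other SNF2-like ATPases none was called, nor did any reach an unadjusted p under 0.05 in limma. Smarca5, the ISWI ATPase SNF2H, averaged 5.77 ± 0.323 FPKM in BT livers and 4.78 ± 0.844 FPKM in HFD livers (0.24, limma adjusted p = 0.257), and its change was near 0 with the trend removed. Smarcad1 and Smarcal1, helicase-like proteins of DNA repair and replication, differed by 0.16 and 0.02.

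None of the 6 methylases of H3K36, H3K9 and H4K20 and none of the 4 other SET-domain genes was called by limma, with 2 and 0 at an unadjusted p under 0.05. Of all genes tested 6.01% were called higher, 7.33% were called lower and 32.4% had an unadjusted p under 0.05. Setdb2, an H3K9 methylase, had 7.76, 6.31 and 7.67 FPKM in BT livers, against 6.19, 4.50 and 5.20 FPKM in HFD livers, with no overlap (0.39 ± 0.14, limma adjusted p = 0.0924). Setdb1, which deposits H3K9 methylation at retroelements, averaged 7.95 ± 0.225 FPKM with BT and 6.40 ± 0.739 FPKM with HFD. The H4K20 methylases Kmt5a, Kmt5b and Kmt5c differed by 0.26, 0.27 and 0.14. Setd2, the main H3K36 trimethylase, stood at 12.3, 11.6 and 13.1 FPKM in BT livers, against 11.9, 12.2 and 12.5 FPKM in HFD livers. The diets overlapped, and the change of Setd2 was 0.02 ± 0.10 (-0.24 with the trend removed). Setd3, a methylase of actin, was the most abundant SET-domain member and likewise overlapped (43.6 ± 2.29 FPKM with BT and 41.8 ± 2.70 FPKM with HFD). Setd4 and Setd6, which have short transcripts, differed by -0.18 and -0.15, and Setd5 by 0.16.

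None of the 16 histone demethylases was called by limma, with 5 (31.2%) at an unadjusted p under 0.05, against 32.4% of all genes tested. Of the 16 demethylases 14 (87.5%) had a change above 0, against 59.2% of all genes. With the trend removed 13 (81.25%) did, against 56.5% of all genes. Their median was 0.24, and the largest values were those of Kdm2a (0.50), Kdm3b (0.37), Kdm5d (0.35) and Kdm6b (0.34). Kdm4b, which removes H3K9 and H3K36 methylation, had 4.51, 4.82 and 4.34 FPKM in BT livers, against 3.37, 3.33 and 3.49 FPKM in HFD livers. The values within each diet were close and the diets lay apart (0.34 ± 0.11, limma adjusted p = 0.0702). Kdm6b, an H3K27 demethylase that in mouse liver acts in autophagy and lipid gene control, averaged 4.88 ± 0.411 FPKM with BT and 3.65 ± 0.423 FPKM with HFD without overlap (limma adjusted p = 0.0978). Kdm6a, its X-linked relative, overlapped (0.23). Kdm3a, an H3K9 demethylase known from the control of fat oxidation in mice, averaged 4.0 ± 0.829 FPKM in BT livers and 3.21 ± 0.437 FPKM in HFD livers and overlapped. Of the H3K4 demethylases of the KDM5 family, Kdm5a lay without overlap at 7.03 ± 0.232 FPKM with BT and 5.56 ± 0.904 FPKM with HFD, but its change of 0.30 was 0.02 with the trend removed. Kdm5b and the Y-linked Kdm5d overlapped at changes of 0.31 and 0.35, and the X-linked Kdm5c differed by -0.08. Kdm1a, the gene of the H3K4 demethylase LSD1, stood at 7.76 ± 0.590 FPKM with BT and 6.65 ± 0.663 FPKM with HFD (0.20), and Kdm1b differed by 0.09. Kdm4a, the most abundant demethylase, overlapped at 13.6 ± 1.61 FPKM with BT and 12.0 ± 2.95 FPKM with HFD. Kdm4c, Kdm8 and Kdm2b differed by 0.21, 0.22 and -0.05.

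**Figure D2:**
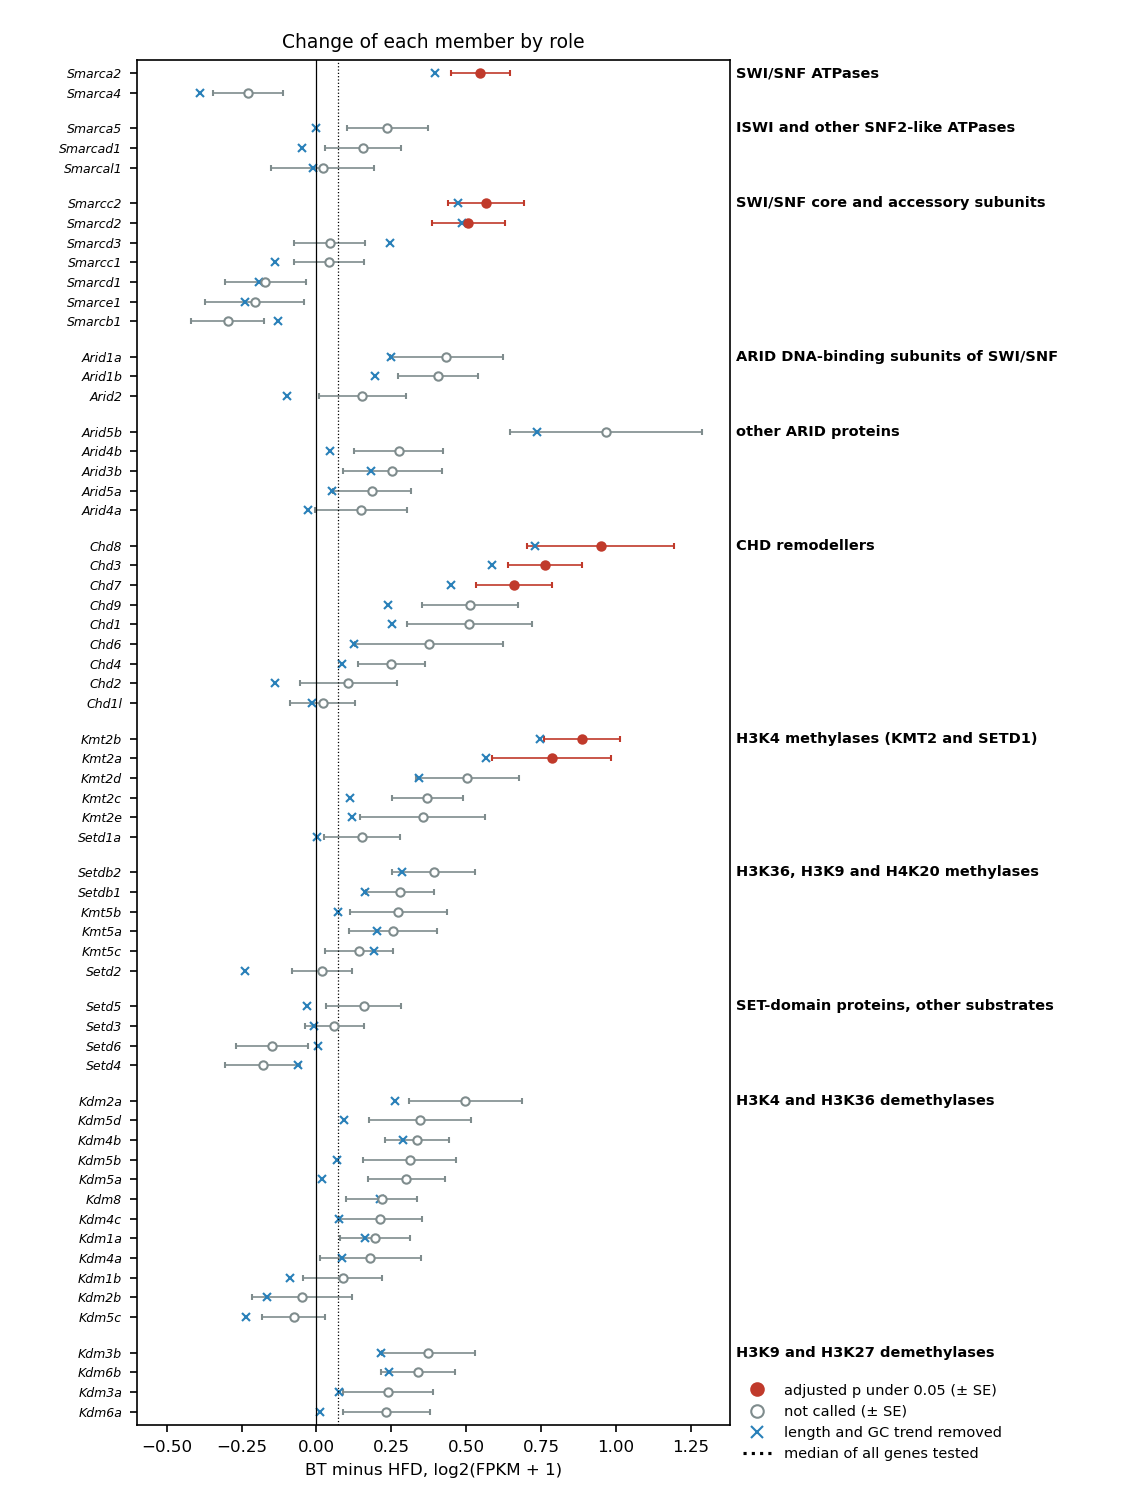
Change of each of the 61 members, BT minus HFD on the log2(FPKM + 1) scale, grouped by role, with limma's SE as bars, filled points for the 8 called members, crosses for the change with the length and GC trend removed, and a dotted line at the median of all genes tested (0.07). Most crosses lie left of their points, and those of Kmt2b, Chd8 and Arid5b stay the farthest to the right.

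At the limit of 1 FPKM, Arid5a (1.01) and Kdm8 (1.04) were the lowest members by mean. Just below it lay Setd7, a lysine methylase, with 0.841 FPKM and overlapping diets, and Arid3a with 0.314 FPKM. Kdm7a, an H3K9 and H3K27 demethylase, had a mean of 0.160 FPKM, with 0.217, 0.224 and 0.277 FPKM in BT livers and 0.0717, 0.0232 and 0.146 FPKM in HFD livers. Kdm4d, Smarca1 and Chd5 stayed under 0.1 FPKM in each library, and Setd1b, Arid3c and the pseudogene Smarca5-ps are listed at 0 throughout.

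Ratios between related members of the same library do not depend on a scaling factor shared by all genes of that library. Quantile normalization has no such factor and was not applied to these ratios. They were formed for 7 pairs, chosen after the values were seen, and 3 libraries against 3 allow no exact permutation p under 0.1. Smarca2 mRNA exceeded Smarca4 mRNA by 6.93, 6.69 and 5.92 times in BT livers, against 3.93, 4.0 and 3.28 times in HFD livers. The transcripts of this pair have similar lengths, 5921 and 6376 bases. The log2 ratio was higher by 0.80 with BT, and by 0.71 to 0.87 when single libraries were left out. The ratio of Chd3 to Chd4 was 6.24, 6.51 and 6.57 in BT livers, against 3.86, 5.12 and 4.69 in HFD livers. For Smarcc2 to Smarcc1 it averaged 8.75 ± 0.313 with BT and 6.06 ± 0.535 with HFD, and for Smarcd2 to Smarcd1 22.1 ± 3.59 with BT and 13.0 ± 1.27 with HFD (SD, n = 3 each). In these 4 pairs the diets did not overlap, and neither did they in 39.3% of all single genes tested. Each of the 4 sets a called member over one not called in the main fit, so the separation in part repeats the calls. Transcripts had 7261 and 6697 bases for Chd3 and Chd4, 4562 and 5773 for Smarcc2 and Smarcc1, and 2747 and 3307 for Smarcd2 and Smarcd1. The length trend was not removed from the ratios. The diets overlapped for Kmt2b to Kmt2a (3.89 ± 0.718 with BT and 4.29 ± 0.955 with HFD), Kmt2d to Kmt2c and Arid1a to Arid1b.

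**Figure D3:**
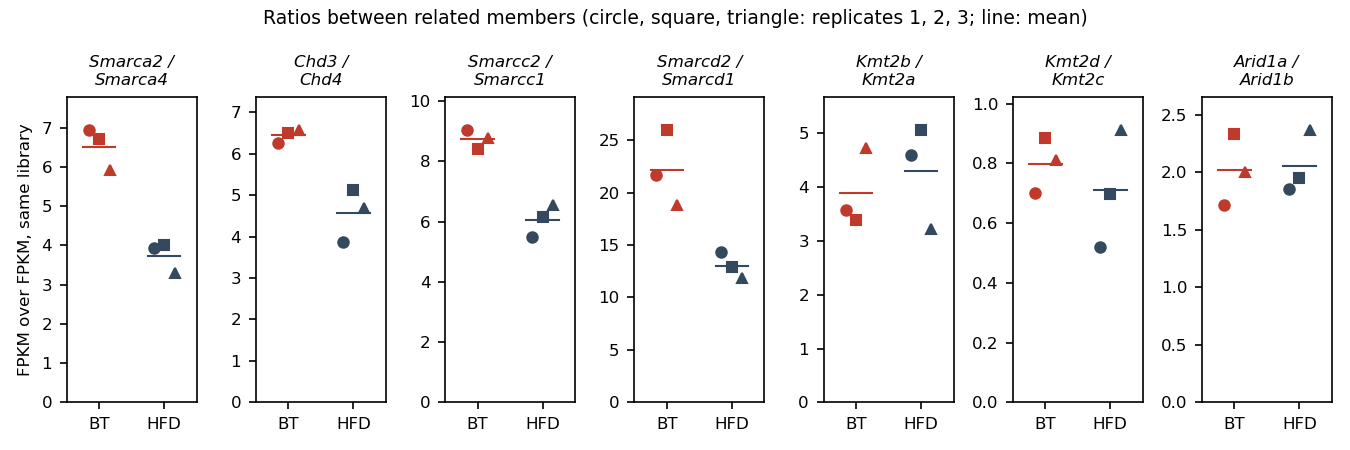
Ratio of FPKM between related members in each library, 1 panel per pair, BT on the left and HFD on the right, a symbol per replicate and a line at the mean. The ratio of Smarca2 to Smarca4 runs from 5.92 to 6.93 in BT livers and from 3.28 to 4.0 in HFD livers, while the last 3 panels overlap.

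Transcript length moved with the diets across the whole table. Among all genes under 1000 bases the median change was -0.49, and 43.6% were called lower in BT. Among genes of 8000 bases or more the median was 0.28, with 12.3% called higher and 0.615% lower. The members' median transcript was 5935 bases, against 2976 for all genes tested, and 30 of the 61 members had at least 6000. In the class of 8000 bases or more, the 16 members had a median of 0.42 and 4 were called higher. The 14 members of 6000 to 8000 bases had a median of 0.31, against 0.22 for all genes of that class, of which 11.4% were called higher. Those of 4000 to 6000 bases had 0.22, against 0.19. The 5 members of 3000 to 4000 bases lay lower than their class, at 0.02 against 0.11, and the 6 of 2000 to 3000 bases had 0.18, against 0.05. The 4 members under 2000 bases had -0.16, against -0.12 for all genes of 1000 to 2000 bases. Across genes the rank correlation of change with length was 0.55 over the 61 members and 0.48 over 10403 genes tested. These genes share their libraries, so both values are descriptions. The part of length in the members' changes was not tested beyond the fit with the trend removed. There the members' median was 0.09 and that of all genes 0.04, and 42 of 61 members (68.9%, against 56.5% of all genes) had a change above 0. In that fit the 16 members of 8000 bases or more had 0.22, against 0.03 for their class. Members of 2000 to 3000, 4000 to 6000 and 6000 to 8000 bases had 0.20, 0.06 and 0.09, against 0.03, 0.05 and 0.01. Members of 3000 to 4000 and of 1000 to 2000 bases had -0.01 and -0.03, against 0.05 and 0.08. The rank correlation of change with length was 0.22 over the 61 members with the trend removed, and 0.01 over the 10403 genes.

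**Figure D4:**
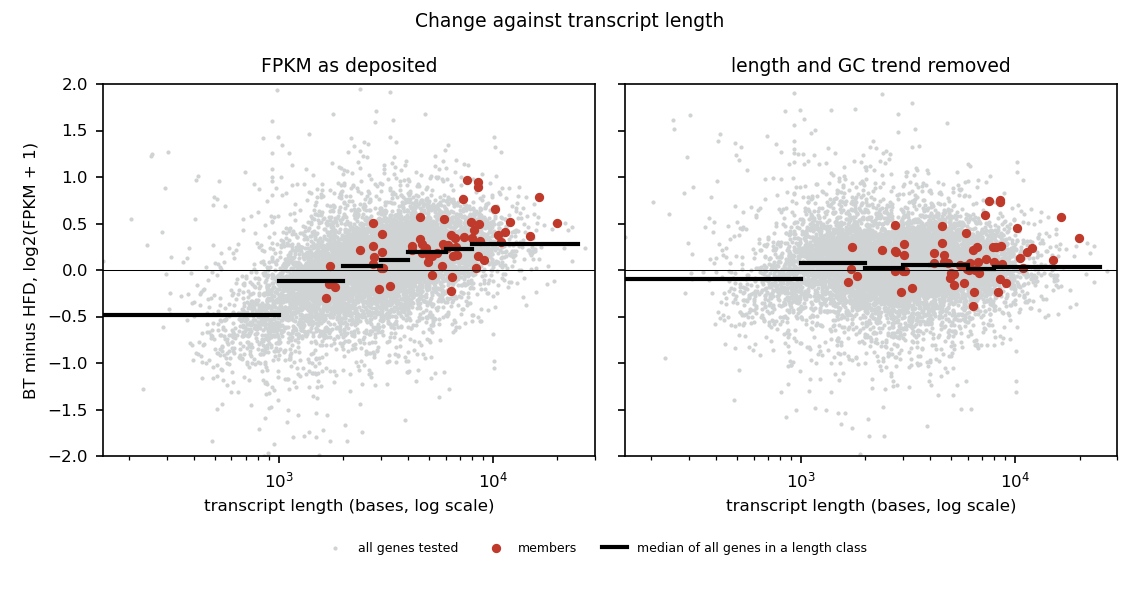
Change of each gene, BT minus HFD on the log2(FPKM + 1) scale, against transcript length in bases (log axis), from the FPKM as deposited on the left and after removal of the length and GC trend on the right. Grey points are all genes tested with a known length (17 of 10403 lie outside the axes in each panel), red points the 61 members and black lines the medians of length classes, which climb from -0.49 to 0.28 on the left and lie between -0.09 and 0.08 on the right.

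The libraries did not split evenly. The members' median deviation from the mean of the 6 libraries was 0.08, 0.11 and 0.15 in BT replicates 1 to 3, against -0.17, -0.28 and 0.07 in HFD replicates 1 to 3. HFD replicate 3 thus stood with the BT libraries, and HFD replicate 2 was the lowest library for 35 of the 61 members. With the length and GC trend removed the members' medians were 0.01, 0.05 and 0.06 with BT, against -0.09, -0.13 and 0.08 with HFD. HFD replicate 3 was then the highest of the 6 libraries. As deposited, the 1213 other genes of 6000 bases or more had deviations of 0.10, 0.10 and 0.17 in the BT libraries, against -0.13, -0.29 and 0.04 in the HFD libraries. The 2915 genes under 2000 bases ran the other way, from -0.12 to -0.08 with BT and from 0.05 to 0.18 with HFD. Depth did not separate the diets, at an estimated 14.0 to 15.1 M fragments per BT library and 13.8 to 15.8 M per HFD library. The sample codes in the labels' descriptions carry one letter in all BT libraries and another in all HFD libraries. The labels do not explain it, and diet and what that letter marks cannot be told apart. The table gives 0 for Alb and mt-Co1 in HFD replicate 3, against at least 22791 FPKM in each other library, so a 0 here can be a failed estimate.

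**Figure D5:**
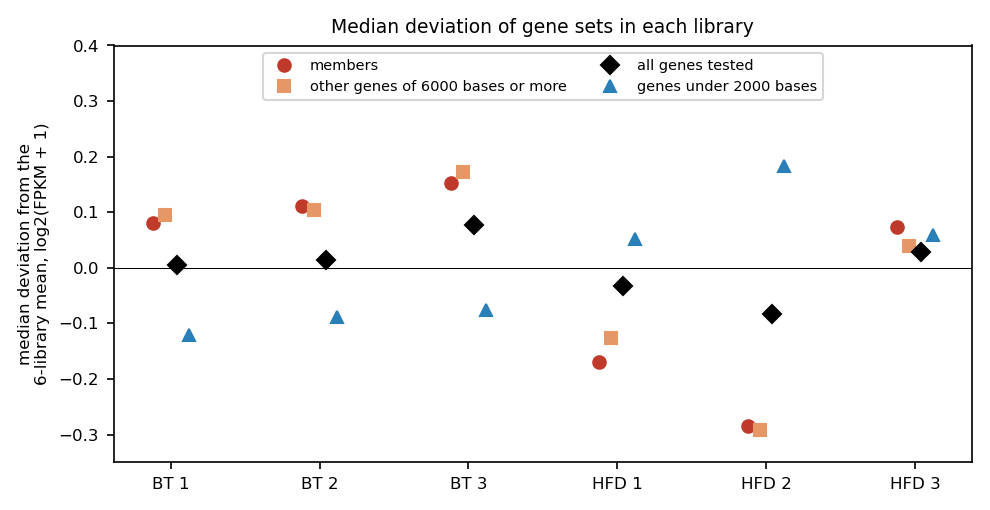
Median deviation of 4 gene sets from the mean of the 6 libraries, on the log2(FPKM + 1) scale, in each BT and HFD library (the members, other genes of 6000 bases or more, all genes tested and genes under 2000 bases). The 61 members have the same sign as the other long genes in every library, and in HFD replicate 3 they lie at 0.07, on the side of the BT libraries.

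Partners of the same complexes and other chromatin enzymes were taken from 11 lists. Of their 138 different genes tested 5 rose (3.62%, against 6.01% of all genes tested) and 4 fell (2.90%, against 7.33%). Both shares were thus below those of all genes. With the trend removed 3 of the 138 were called higher and 1 lower, against 4.11% and 3.74% of all genes. The median of the 138 was 0.14, against 0.07 for all genes. Outside the Smarc and Arid genes none of 12 SWI/SNF subunits rose, and Bcl7c (-0.93, limma adjusted p = 0.0248) and the bromodomain subunit gene Brd7 (-0.46, limma adjusted p = 0.0417) fell. Brd7 had 14.6 ± 1.13 FPKM in BT livers and 20.5 ± 2.64 FPKM in HFD livers (SD, n = 3 each), and it was also lower with the trend removed (-0.55), whereas Bcl7c, with a transcript of 1132 bases, was not called (-0.13). Among 11 ISWI partners Baz1b, a subunit of the WICH complex, rose (0.51) and Chrac1 fell (-0.49). With the trend removed Baz1b was still called (0.34), and Chrac1, with a transcript of 871 bases, was not (-0.10). Of 28 genes of INO80, SRCAP and TIP60 remodellers, the ATPase gene Srcap rose (0.84) and Ino80b fell (-0.50). With the trend removed Srcap was still called (0.63), and Ino80b, with a transcript of 1503 bases, was not (-0.19). Other gene models cover 65.0% of the exon bases of Srcap, which makes its value uncertain.

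Several lists had no call in limma, and the count at an unadjusted p under 0.05 is given with each, beside 32.4% of all genes tested. None of 12 NuRD partners was called (3 unadjusted). Gatad2b differed by 0.56 (limma adjusted p = 0.0607) and Mbd2 by -0.38. Of 14 partners of KMT2 and SETD1 in COMPASS complexes, Hcfc1, a host cell factor that tethers SETD1, rose (0.43, limma adjusted p = 0.0418). Paxip1, a partner of KMT2C and KMT2D, differed by 0.41 (limma adjusted p = 0.0626). With the trend removed Hcfc1 was not called (0.23). None of 11 genes of Polycomb repressive complex 2, which methylates H3K27, was called (2 unadjusted), with Phf19 at 0.41 and Jarid2 at 0.35. Of 15 other histone methylases none was called (5 unadjusted), with Nsd1 at 0.43 (limma adjusted p = 0.0511) and Prdm2 at 0.42. Of 7 other JmjC genes Riox2 rose (0.70, limma adjusted p = 0.0272) and Jmjd6 differed by -0.27. Among 14 histone acetylases and coactivators Ncoa2 rose, to 6.80 ± 0.0692 FPKM in BT livers, against 4.14 ± 1.02 FPKM in HFD livers (0.62, limma adjusted p = 0.0346), and Kat6a differed by 0.51. None of these 14 was called with the trend removed. None of 15 deacetylases was called (1 unadjusted), with a median near 0, Hdac8 at -0.34 and Sirt6 at 0.29. Of 6 genes of DNA methylation none was called (2 unadjusted), with Tet3 at 0.50 and Dnmt3a at 0.41. Each of the 9 called partners missed the threshold without BT replicate 1 and without BT replicate 2. Their highest limma adjusted p lay between 0.0937 and 0.148 over the fits without 1 library. Without BT replicate 1, 49 of all 10476 genes were called higher and 124 lower, and without BT replicate 2, 103 and 221.

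Markers of cell types were read beside these values. In a bulk sample fewer cells of a type and less RNA per cell cannot be told apart. All 8 hepatocyte markers were above 1 FPKM, with 1 called lower (Ttr). Their sum without Alb was 9627 to 10271 FPKM with BT, against 12332 to 16450 FPKM with HFD. The median log2 change over the 8 markers, Alb included, was 0.06. Alb entered that median with its 0 in HFD replicate 3, which can be a failed estimate. Of 8 Kupffer cell and macrophage markers none was called (sum 79.6 to 102 FPKM with BT and 77.0 to 97.1 FPKM with HFD), and of 7 endothelial markers tested none (18.1 to 21.3 FPKM with BT and 14.3 to 24.6 FPKM with HFD, with Clec4g at 0). Of 7 stellate cell and fibroblast markers tested Col3a1 was called lower (sum 72.0 to 97.5 FPKM with BT and 99.9 to 164.8 FPKM with HFD, with Lrat at 0). Lymphocyte markers summed to 5.56 to 12.6 FPKM with BT and 3.89 to 5.80 FPKM with HFD, cholangiocyte markers to 46.2 to 61.0 FPKM with BT and 51.6 to 112.6 FPKM with HFD, and those of proliferating cells to 2.30 to 3.02 FPKM with BT and 3.60 to 6.78 FPKM with HFD. Erythroid markers summed to 99.8 to 331.6 FPKM with BT and 153.5 to 245.8 FPKM with HFD, and adipocyte markers to 143.6 to 217.9 FPKM with BT and 54.9 to 195.5 FPKM with HFD. None of the markers tested in these last 5 lists was called (1 of 8 lymphocyte, 1 of 5 cholangiocyte, 2 of 6 proliferation, 4 of 5 erythroid and 1 of 5 adipocyte markers reached a mean of 1 FPKM). The part of cell composition in the members' changes was not tested.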

How the data were processed

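Liver mRNA of 3 BT and 3 HFD mouse libraries was sequenced after TruSeq preparation (per the labels' protocols). The authors deposited gene expression as FPKM for 23474 Ensembl identifiers (a column for each library). Tools named in the submitters' processing notes, without their roles, are Cufflinks 2.1.1, STAR 2.4.0 and CASAVA 1.8.2. Which genome build, annotation and strand setting were used is not given in these sources. GENCODE M21 (GRCm38) named 22671 identifiers and gave spans (1-based), transcript lengths and GC contents (longest protein-coding transcript, else the longest). Its build may not be the authors'. No counts came with the table. Depth was estimated from the lowest values of genes with 1 transcript over 1000 bases, in a window of 0.03 to 0.1 FPKM times kilobases, which is rough. Low genes carry the most counting error.

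Genes whose mean reached 1 FPKM (10476) were tested as log2(FPKM + 1) with limma 3.58.1 in R 4.3.3 (eBayes with a variance trend, 4 residual degrees of freedom, two-sided, Benjamini-Hochberg adjustment over all of them, threshold 0.05). A pseudocount of 1 understates changes of low genes. On simulated data of 10476 genes for BT against HFD, 96% of genes changed by 1 and 99% changed by 2 on the log2 scale were recovered, with 6.70% false calls. Both sizes exceed the largest change of any member (0.97). The simulated noise was independent between genes and held no length trend or library effect. The recovery therefore does not carry over to the members. The trend on length and GC content was removed per library with natural splines of 5 degrees of freedom. Alternatives were another pseudocount and filters, scalings, variance models, a replicate block and each library left out. TPM with Alb and mt-Co1 in the sum, and left-out libraries with the trend removed, were added after seeing the data. The members, role lists, partner lists and the rule for named genes (called members, the 1 with the smallest p and the most abundant 1 of each role, 2 partners per list) were chosen with earlier results of these data known. The ratio pairs and other members named were chosen after their values were seen. Lists were described by counts and medians, with no test over a list. Figures were drawn with matplotlib 3.10.9.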

Additional observations from a re-analysis of the deposited data

How the results depend on the processing

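The count of 8 members called higher moved to 4 without a filter on low values, 5 with a mean of at least 5 FPKM (34 members left, fewer genes tested), 15 on rescaling to TPM without Alb and mt-Co1, and 4 after removal of the length and GC trend, alone or with a replicate block. Leaving out 1 library gave 2 to 19, and with the trend removed 0 to 5. The same fits called 49 to 855 of all 10476 genes higher, and 30 to 467 with the trend removed. Members called lower numbered 0, except 1 with the trend removed (Smarca4). The median change of 0.25 moved to 0.086 with the trend removed, alone or with a replicate block, and to 0.089, 0.11, 0.074 and 0.086 without BT replicate 2, BT replicate 3, HFD replicate 1 and HFD replicate 2 as well (range 0.074 to 0.19), against 0.17 to 0.35 without that removal. Rescaling to TPM raised the median of all genes by 0.13. Members lay 0.18 above it with TPM and as deposited, 0.17 above it with median-of-ratios scaling, 0.14 with quantile normalization and 0.04 with the trend removed. All genes split into 630 higher and 768 lower as deposited, 1347 and 536 with TPM, 614 and 557 with Alb and mt-Co1 in the sum, 448 and 884 with median-of-ratios scaling, and 431 and 392 with the trend removed. Kmt2b, Chd3 and Smarca2 passed in all 12 other settings that kept all libraries and were chosen with the tests. Of 8 called members all kept a positive change in each of them. With the trend removed and BT replicate 1 left out none of the 8 passed. In that fit 30 of all 10476 genes were called higher and 34 lower. Among the 21 members followed through all settings, signs changed only in members that were not called. Setd3 was at -0.010 with median-of-ratios scaling, at -0.0069 with the trend removed (alone or with a replicate block), and then at -0.00741, -0.053 and -0.039 without BT replicate 1, BT replicate 2 and HFD replicate 2. Smarca5 was at -0.0020 with the trend removed (alone or with a replicate block), and then at -0.00254, -0.022, -0.0082 and -0.038 without BT replicate 1, BT replicate 3, HFD replicate 1 and HFD replicate 2. With the trend removed, Arid4b was at -0.022 and Kdm4a at -0.025 without HFD replicate 2, and Setd4 at 0.035 without HFD replicate 3. Without single libraries the log2 ratio difference ran from -0.32 to 0.0020 for Kmt2b to Kmt2a, from -0.0058 to 0.40 for Kmt2d to Kmt2c and from -0.14 to 0.083 for Arid1a to Arid1b. The causes were not tested. Same-numbered libraries correlated at 0.16, 0.097 and 0.15 in their deviations, so the numbers were not taken to pair them, although each correlated best with its own number, which is a hint from the data and not from the design. With a replicate block 9 members were called higher, Chd1 in addition, and none lower. Depth limits the low members most, and no counts came with the values.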
